A study of Mus musculus with 8 samples.

Results

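The RNA of 10 genes of the MHC class I presentation pathway was followed in mouse splenic Tregs and Tconvs with and without constitutive CD70 on dendritic cells. The genes were H2-K1, H2-D1, H2-T22, H2-T23, B2m, Tap1, Tap2, Tapbp, Erap1 and Nlrc5, picked by name. Each of them had 1 row among the 52636 rows of the table, and all 10 were among the 12816 genes tested. Tregs (CD4+ Foxp3+) and Tconvs (CD4+ Foxp3-) were sorted by the eGFP of a Foxp3 reporter from mice of 6 to 8 weeks, with 200000 cells per library. The controls were CD27+/- mice. The CD70Tg mice were CD11c-Cd70tg;CD27+/-, with CD70, which binds CD27, expressed from the CD11c promoter and thus mainly in dendritic cells. All 4 groups thus carried the Foxp3 reporter and a single functional Cd27 allele. Each group had 2 libraries, 8 libraries in all. The labels do not say whether a library came from 1 mouse or from a pool, so the p-values measure the spread between these libraries.

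MHC class I molecules display peptides from the cytosol to CD8 T cells. The proteasome cuts proteins into peptides, the TAP transporter carries them into the endoplasmic reticulum, aminopeptidases trim them, and tapasin holds the empty heavy chain with its light chain at the transporter until a peptide binds. NLRC5 is the transactivator of these genes, and interferon gamma, acting in part through IRF1, is a classical inducer of the whole pathway.

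The sequence upstream of 8 of the 10 genes was in the RefSeq promoter table (build GRCm38.p6). Tap2 and Nlrc5 had no entry. The 250 bases before each start site were searched on both strands for the letters GAAANNGAAA, an interferon-stimulated response element (ISRE) bound by IRF proteins, GGGNNTTNCC, a kappaB element bound by NF-kappaB, TTCNNNGAA, an interferon gamma activated element (GAS), and TGACG and CCAAT, the X2 and Y boxes through which class I promoters bind CREB and NF-Y. The sequences below are those with an ISRE or kappaB match, which are in capitals, together with that of Tap1, the gene of the TAP transporter with the largest response. All are written 5′ to 3′ in the direction of the gene.
H2-K1, chr17:34000334-34000583, minus strand: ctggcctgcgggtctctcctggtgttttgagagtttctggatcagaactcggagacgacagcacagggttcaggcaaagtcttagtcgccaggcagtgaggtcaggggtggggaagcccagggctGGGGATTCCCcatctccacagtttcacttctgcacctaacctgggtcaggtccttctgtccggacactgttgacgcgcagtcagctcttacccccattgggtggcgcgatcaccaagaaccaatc
H2-D1, chr17:35262844-35263093, plus strand: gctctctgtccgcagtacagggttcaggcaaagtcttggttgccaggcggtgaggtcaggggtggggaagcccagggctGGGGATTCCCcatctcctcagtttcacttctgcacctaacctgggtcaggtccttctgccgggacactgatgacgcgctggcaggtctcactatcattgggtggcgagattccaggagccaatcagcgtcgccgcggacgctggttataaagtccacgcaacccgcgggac
H2-T22, chr17:36042743-36042992, minus strand: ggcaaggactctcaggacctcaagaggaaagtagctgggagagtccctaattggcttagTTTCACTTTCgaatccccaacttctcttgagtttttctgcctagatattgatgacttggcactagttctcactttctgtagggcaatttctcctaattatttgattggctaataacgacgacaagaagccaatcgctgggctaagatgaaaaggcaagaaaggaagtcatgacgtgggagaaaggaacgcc
H2-T23, chr17:36032702-36032951, minus strand: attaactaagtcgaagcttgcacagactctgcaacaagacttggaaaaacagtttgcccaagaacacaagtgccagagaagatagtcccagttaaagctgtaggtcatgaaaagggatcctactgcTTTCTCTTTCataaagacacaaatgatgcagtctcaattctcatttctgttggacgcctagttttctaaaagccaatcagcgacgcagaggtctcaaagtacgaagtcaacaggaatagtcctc
B2m, chr2:122147437-122147686, plus strand: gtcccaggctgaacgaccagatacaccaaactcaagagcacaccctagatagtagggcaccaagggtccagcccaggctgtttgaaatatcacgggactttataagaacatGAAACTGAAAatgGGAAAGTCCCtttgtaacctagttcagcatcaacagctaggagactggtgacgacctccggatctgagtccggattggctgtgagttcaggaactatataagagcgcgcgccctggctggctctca
Tap1, chr17:34187306-34187555, plus strand: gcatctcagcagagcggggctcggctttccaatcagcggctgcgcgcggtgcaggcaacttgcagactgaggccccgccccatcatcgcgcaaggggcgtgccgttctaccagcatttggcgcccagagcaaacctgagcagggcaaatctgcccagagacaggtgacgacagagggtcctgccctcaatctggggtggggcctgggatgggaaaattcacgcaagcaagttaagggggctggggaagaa
H2-K1 and H2-D1 carried the same kappaB letters, GGGGATTCCC, and neither had an exact match to the ISRE letters. Both windows hold tttcacttct after the kappaB letters, which is close to the ISRE letters of the other strand. Elements that depart from the letters were not searched, so no match does not mean no element. H2-T22 and H2-T23 had the ISRE letters without a kappaB match. B2m had both. Among all 32851 promoters of the table, 2.98% held the ISRE letters, 4.11% the kappaB letters, 7.02% the GAS letters, 17.77% X2 and 33.85% Y. X2 and Y were found together upstream of H2-K1, H2-D1, H2-T22, B2m and Tap1. No GAS match was found in the windows of these genes, and Erap1 had no match to any of the 5 motifs. The start site of Tap1 lay 226 bases from that of Psmb9, which is read from the opposite strand, so that both share this sequence. These matches describe the letters in a window and nothing of what is bound there.

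Of the 10 genes, 7 lie on chromosome 17 in the mouse MHC (GRCm38). Tapbp starts the group at chr17:33915899-33929292, followed by H2-K1 at chr17:33996017-34000347, Tap1 at chr17:34187553-34197225, Tap2 at chr17:34203527-34216321, H2-D1 at chr17:35262730-35267499, H2-T23 at chr17:36029773-36032855 and H2-T22 at chr17:36037128-36042747. The remaining genes are B2m on chr2:122147686-122153083, Erap1 on chr13:74639568-74693201 and Nlrc5 on chr8:94434356-94527272. Each is annotated as protein-coding. How reads over exons shared with another gene were counted is not given in the sources used here.

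Values are normalised counts per 20 M as deposited. They rested on 6.94 to 33.37 M reads on genes in Tconvs and on 1.92 to 4.56 M in Tregs, recovered from the step that 1 read makes in each library. Every value of the 10 genes stood on at least 351 reads. The sort held for its markers, with Foxp3 between 19769 and 21367 in Tregs and between 1039 and 1497 in Tconvs. A gene was tested with limma on log2(value + 5) in 1 model of all 8 libraries, and is said to have risen or fallen where its Benjamini-Hochberg adjusted p over all tested genes was under 0.05.

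**Figure D1:**
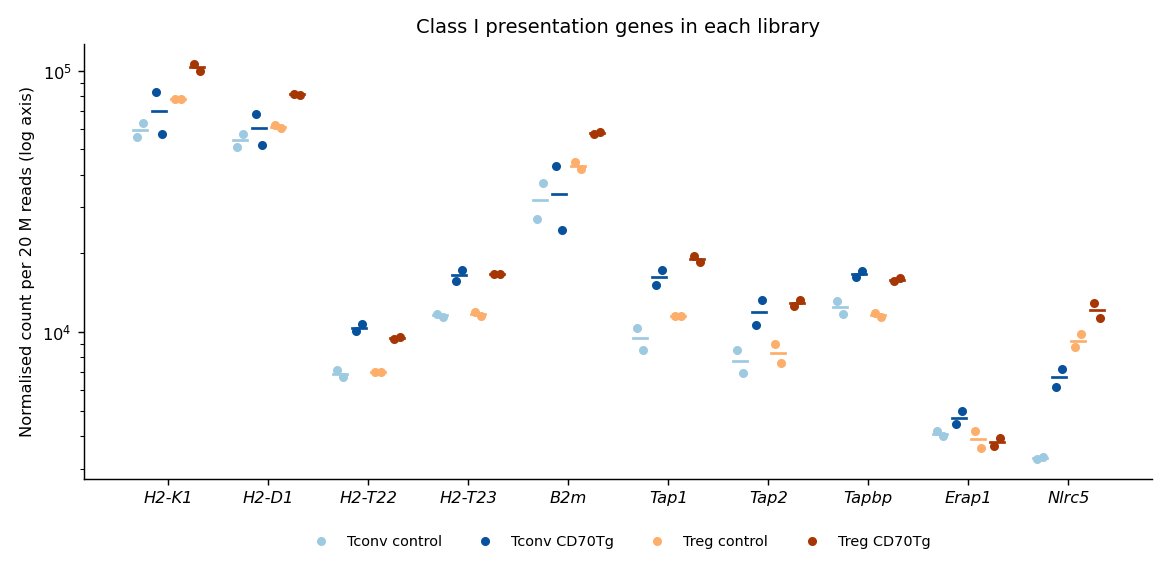
Normalised count per 20 M reads (log axis) of the 10 genes, with 1 point per library and a bar at the mean of each group of 2 libraries. In Tregs, both CD70Tg points lie above both control points for 9 of the 10 genes, Erap1 being the exception. In Tconvs this holds for 7 genes, and the points of H2-K1, H2-D1 and B2m overlap.

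In Tregs, 5 of the 10 genes rose in CD70Tg mice and none fell. They were Tap1, Tap2, H2-T23, Tapbp and H2-T22. Among all tested genes 3.94% rose and 3.46% fell. The median log2 fold change was 0.42 over the 10 genes and -0.05 over all tested genes. In Tconvs, 6 of the 10 rose, the same 5 and Nlrc5, and none fell, where 6.82% of all tested genes rose and 1.99% fell. Here the median was 0.47, against 0.01 over all tested genes. With a log2 fold change over 1 also required, which 2.53% of all genes met upwards in Tregs and 4.07% in Tconvs, no member passed in Tregs and Nlrc5 alone passed in Tconvs. Both CD70Tg libraries lay above both controls for 9 members in Tregs and 7 in Tconvs, against 22.5% and 23.7% of all tested genes.

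The classical heavy chains, H2-K1 and H2-D1, present peptides to CD8 T cells. H2-K1 was at 78093 and 77633 in control Tregs and at 106208 and 99989 in CD70Tg Tregs. The groups did not overlap and libraries of a group were close, so that H2-K1 took 0.389% of all counts in control and 0.513% in CD70Tg Tregs. Its log2 fold change was 0.40 (SE 0.18, 95% CI 0.02 to 0.79), which did not pass (adjusted p = 0.20, limma). H2-D1 read 62037 and 60067 in control and 81529 and 80856 in CD70Tg Tregs, again without overlap. The log2 fold change was 0.41 (SE 0.16, 95% CI 0.07 to 0.75, adjusted p = 0.14).

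In Tconvs the same pair of genes was spread more widely. H2-K1 was at 55733 and 63188 in controls and at 83101 and 57421 in CD70Tg Tconvs, and H2-D1 at 51177 and 57124 in controls and at 68289 and 52050 in CD70Tg Tconvs. The second CD70Tg library fell among the controls for both. Neither passed, with log2 fold changes of 0.22 (95% CI -0.16 to 0.60, adjusted p = 0.59, limma) and 0.14 (95% CI -0.20 to 0.48, adjusted p = 0.74).

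B2m encodes the light chain, beta-2 microglobulin, that every class I molecule needs at the surface. It was at 44685 and 41941 in control Tregs and at 57048 and 58085 in CD70Tg Tregs. In Tconvs it was at 27097 and 37017 in controls, and the CD70Tg libraries stood on either side of these, at 43249 and 24444. Its log2 fold change was 0.41 in Tregs (SE 0.21, 95% CI -0.04 to 0.86, adjusted p = 0.28, limma) and 0.04 in Tconvs (95% CI -0.41 to 0.48, adjusted p = 0.96). The H2-K1, H2-D1 and B2m means of CD70Tg Tregs were each about 1.3 times the control mean, with ratios of 1.32, 1.33 and 1.33.

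These 3 genes are the most abundant members, and the deepest library (33.37 M reads, second CD70Tg Tconv) was low for abundant genes in general. Between the CD70Tg Tconv libraries, second minus first, the median log2 difference was 0.21 over 4784 genes with a mean value of 200 to 1000 but -0.75 over the 17 genes above 40000, and -0.82, -0.53 and -0.39 for B2m, H2-K1 and H2-D1. Actb, which encodes beta-actin, was at 83242 and 50597 in these libraries. Between the control Tconv libraries, first minus second, the median of those 17 genes was -0.45, while it was -0.15 or nearer to 0 within both Treg groups. How far this moved the class I values in Tconvs was not tested. The model takes 1 spread per gene from all groups. With the 4 Treg libraries alone the log2 fold changes in Tregs were the same. There H2-K1 (adjusted p = 0.011, limma), H2-D1 (adjusted p = 0.0075), B2m (adjusted p = 0.0061) and Nlrc5 (adjusted p = 0.0094) passed, 9 of the 10 members in all. The share of all tested genes that passed in that fit is not given here. Of 19 alternative fits, H2-K1 and B2m each passed in this 1 alone, H2-D1 in 3 and Nlrc5 in 6.

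**Figure D2:**
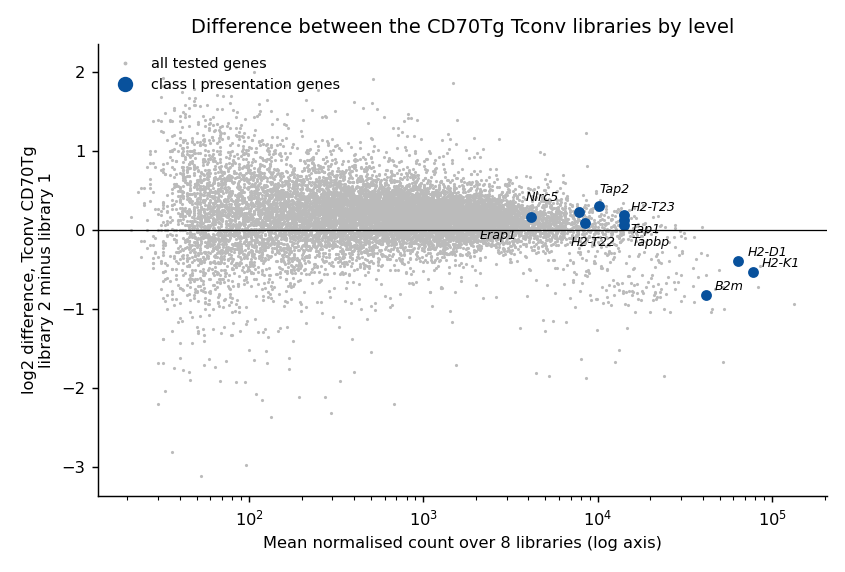
Difference between the 2 CD70Tg Tconv libraries (log2 of the second minus log2 of the first) against the mean normalised count over 8 libraries (log axis). Each grey point is 1 of 12816 tested genes and the blue points are the 10 members. H2-K1, H2-D1 and B2m sit in the downward tail of abundant genes, at -0.53, -0.39 and -0.82, and the other 7 lie above 0.

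H2-T22 and H2-T23 are non-classical heavy chains. H2-T23 encodes Qa-1, which presents a signal peptide to CD94/NKG2 receptors, and H2-T22 is known as a ligand of some gamma-delta T cell receptors. H2-T23 was at 11947 and 11524 in control Tregs and at 16634 and 16638 in CD70Tg Tregs, and at 11722 and 11432 in control Tconvs and 15720 and 17207 in CD70Tg Tconvs. All 4 CD70Tg libraries lay above all 4 controls. It rose by nearly the same amount in both subsets, with log2 fold changes of 0.50 in Tregs (SE 0.11, adjusted p = 0.012, limma) and 0.51 in Tconvs (SE 0.11, adjusted p = 0.0080). H2-T22 was at 7031 and 6997 in control Tregs and at 9394 and 9592 in CD70Tg Tregs. In Tconvs the values were 7127 and 6707 in controls and 10036 and 10697 in CD70Tg mice. It rose in both, by 0.44 in Tregs (SE 0.11, adjusted p = 0.021, limma) and by 0.58 in Tconvs (SE 0.11, adjusted p = 0.0018) on the log2 scale. Of the distinct stretches of 50 bases in its annotated transcripts, 34.5% occur in another gene, 31.2% in H2-T10, so that reads may be split with this gene. The shares were 13.6% for H2-T23, 12.8% for H2-D1 and 9.6% for H2-K1.

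Tap1 and Tap2 encode the subunits of the peptide transporter. In Tregs, Tap1 was at 11471 and 11524 in controls and at 19581 and 18552 in CD70Tg mice. The control Tconv libraries gave 10387 and 8517, and the CD70Tg Tconv libraries 15124 and 17318. It was the member with the largest log2 fold change in Tregs, 0.73 (SE 0.13, 95% CI 0.46 to 1.00, adjusted p = 0.0020, limma), and in Tconvs it rose by 0.78 (SE 0.13, 95% CI 0.51 to 1.05, adjusted p = 5.5e-04). Tap2 rose along with it. Its values were 9016 and 7575 in control and 12591 and 13240 in CD70Tg Tregs, with a log2 fold change of 0.64 (SE 0.14, adjusted p = 0.0091, limma). In Tconvs they were 8526 and 6971 in controls and 10635 and 13206 in CD70Tg mice, with a log2 fold change of 0.62 (SE 0.14, adjusted p = 0.0077). For both subunits, no CD70Tg library overlapped a control library of its subset.

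Tapbp encodes tapasin, which ties the empty heavy chain to the transporter and edits its peptide. It was at 11830 and 11380 in control and 15652 and 16013 in CD70Tg Tregs, and at 13142 and 11662 in control and 16264 and 17096 in CD70Tg Tconvs. The rise was 0.45 on the log2 scale in Tregs (SE 0.12, adjusted p = 0.027, limma) and 0.43 in Tconvs (SE 0.12, adjusted p = 0.027). In Tconvs it passed in 8 of 19 alternative fits, with log2 fold changes of 0.34 to 0.52 and adjusted p up to 0.22, and in Tregs in 14 of 19. Its exons share 24.9% of their bases with Gm19412 on the opposite strand and 4.1% with Zbtb22. Those of Tap2 share 14.1% with Gm15821 and 4.4% with Gm20496, and those of H2-T22 share 29.4% with A930015D03Rik, all on the opposite strand. Over the 8 libraries Gm19412 had a mean of 2320, beside 14130 for Tapbp. Gm15821 and Gm20496 had 3715 and 6149, beside 10220 for Tap2, and A930015D03Rik had 146, beside 8448 for H2-T22. The strand setting of the counting is not given in the sources used here, so reads of such partners cannot be told apart.

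Erap1 encodes the aminopeptidase that trims peptides to class I length. It passed in neither subset. Its values were 4173 and 3604 in control and 3668 and 3932 in CD70Tg Tregs, with overlap, and a log2 fold change of -0.03 (95% CI -0.28 to 0.22, adjusted p = 0.92, limma). In Tconvs they were 4168 and 3993 in controls and 4432 and 4973 in CD70Tg mice, and the log2 fold change was 0.20 (95% CI -0.04 to 0.45, adjusted p = 0.39). The upper bounds, 0.22 and 0.45 on the log2 scale, lie under the estimates for Tap1 in the same subset.

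Nlrc5 had the largest response of the 10 genes in Tconvs. It was at 3266 and 3334 in controls and at 6157 and 7224 in CD70Tg Tconvs, a log2 fold change of 1.01 (SE 0.12, 95% CI 0.76 to 1.27, adjusted p = 2.5e-05, limma). Tregs already had more of it in controls, at 8744 and 9773, and had 12904 and 11320 in CD70Tg mice. There the log2 fold change was 0.39 (SE 0.12, 95% CI 0.13 to 0.64) and did not pass (adjusted p = 0.064). Every Treg library thus stood above every Tconv library.

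**Figure D3:**
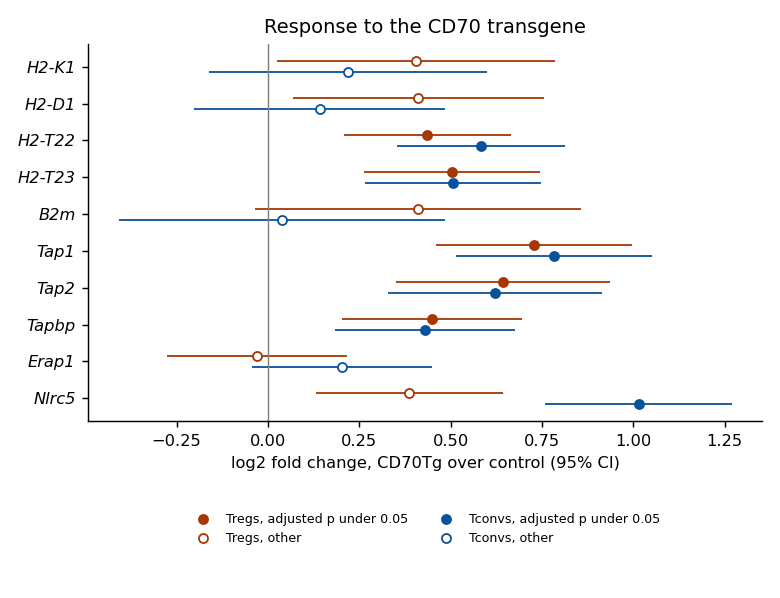
log2 fold change of CD70Tg over control for the 10 genes in Tregs and in Tconvs, with 95% confidence intervals, filled where the adjusted p was under 0.05. Tap1, Tap2, Tapbp, H2-T22 and H2-T23 are filled in both subsets, Nlrc5 is filled in Tconvs at 1.01, and Erap1 lies at -0.03 and 0.20.

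The Treg response was then compared with the Tconv response in the same model. No member passed this test of the difference in limma, where 1.02% of all genes did, and limma-voom on the recovered reads passed 0 as well. At an unadjusted p under 0.05 there was 1, Nlrc5, whose response was 0.63 smaller in Tregs on the log2 scale (95% CI for Treg minus Tconv, -0.99 to -0.27, adjusted p = 0.11). It passed in 1 of 18 alternative fits, that without the first CD70Tg Tconv library (-0.74, adjusted p = 0.025). Across all 18 it lay between -0.74 and -0.41, with adjusted p up to 0.41. For H2-T23, Tap1, Tap2 and Tapbp, the differences were 0.00, -0.05, 0.02 and 0.02, with 95% intervals that reached from -0.43 to 0.44 at the widest, and smaller differences than these could not be detected. H2-T22 had a difference of -0.15 (95% CI -0.47 to 0.18) and Erap1 of -0.23 (95% CI -0.58 to 0.12). H2-K1 had 0.19 (95% CI -0.35 to 0.72) and H2-D1 0.27 (95% CI -0.21 to 0.76). For B2m the difference was 0.37, and the interval ran from -0.26 to 1.00.

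Leaving out libraries changed these counts. In Tregs, 2 members passed without the first control library and 1, Tap1, without the second control or without either CD70Tg Treg library. In Tconvs, 3 members passed without the second control library and 4 without the second CD70Tg library. Tap1 passed in both subsets, and Nlrc5 and H2-T22 in Tconvs, under each of the 19 alternative fits.

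Tregs and Tconvs were also compared within each genotype. Every Treg library was shallower (1.92 to 4.56 M reads on genes) than every Tconv library (6.94 to 33.37 M). In both Tconv groups the deeper library read lower for the most abundant genes. Subset and depth thus cannot be told apart for B2m, H2-K1 and H2-D1. In control mice, Nlrc5 was the single member that passed, with a log2 difference of 1.48 for Tregs over Tconvs (SE 0.12, 95% CI 1.23 to 1.74, adjusted p = 7.1e-08, limma), where 27.5% of all tested genes were higher in Tregs and 18.4% lower. H2-K1 and B2m were 0.39 (adjusted p = 0.086) and 0.45 (adjusted p = 0.091) higher in control Tregs, without overlap of the libraries. Each passed in 5 of 19 alternative fits, with 0.30 to 0.68 for H2-K1 and 0.23 to 0.68 for B2m, the lower value of each without the first control Tconv library. H2-D1 lay between 0.0858 and 0.44 and passed in 1 of 19, with cyclic loess between the libraries (adjusted p = 0.026). In CD70Tg mice, Nlrc5 was 0.86 higher in Tregs (adjusted p = 3.8e-05, limma), B2m 0.82 (adjusted p = 0.0052), H2-K1 0.58 (adjusted p = 0.017) and H2-D1 0.45 (adjusted p = 0.036). Erap1 was lower in Tregs, with a log2 difference of -0.31 (adjusted p = 0.045). Among all tested genes, 22.6% were higher and 20.1% lower in CD70Tg Tregs than in CD70Tg Tconvs. These B2m, H2-K1 and H2-D1 differences moved with single libraries. Without the deepest library described above, they were 0.41, 0.31 and 0.25, and Nlrc5 (0.97) was the 1 member that passed. Without the first CD70Tg Tconv library they were 1.24, 0.84 and 0.64 and 5 members passed, and without either CD70Tg Treg library 2 members passed. B2m passed in 17 of 19 alternative fits, H2-K1 in 12, H2-D1 in 9 and Erap1 in 10.

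Levels of different genes were compared per kb of exon, which takes all annotated exons of a gene as counted. In control Tregs the order was B2m (50364 ± 2256 per kb, SD, n = 2), H2-K1 (26502 ± 111), H2-D1 (23673 ± 540), H2-T23 (4062 ± 104), Tapbp (3199 ± 88), Tap2 (2194 ± 270), Tap1 (2100 ± 6.8), H2-T22 (2055 ± 7.0), Nlrc5 (1090 ± 86) and Erap1 (534 ± 55). The light chain and the classical chains thus stood well above the loading machinery. The values of Tap2 overlapped those of its neighbours Tap1 and H2-T22. In control Tconvs, Nlrc5 (389 ± 5.7 per kb, SD, n = 2) came below Erap1 (561 ± 17), and H2-K1 and H2-D1 overlapped, at 18970 to 21507 and at 19844 to 22150 per kb. In CD70Tg Tregs, Tap1 (3482 ± 133 per kb) and Tap2 (3416 ± 121) overlapped. Per kb of coding sequence, H2-T22 (6169 in control Tregs) came above Tap1 (5294) and Tap2 (3939), and Nlrc5 (1536) and Erap1 (1394) were still the lowest.

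The profile of a gene was its log2 values in the 8 libraries after subtraction of its mean. The 6 other genes nearest to the mean profile of the 10 members were H2-Q7, Itgb7, Man1a, Manea, 4933404O12Rik and Serinc1, at root mean square distances of 0.089 to 0.104 in log2. H2-Q7 and Man1a passed in both subsets, Itgb7 in Tregs, and the other 3 in neither. Their likeness to the members was measured in these same libraries, so these calls are no separate support. Among the 6 nearest to Nlrc5 were Cdc14a, Apobec3, 2010111I01Rik, AU020206 and Ntng2, at 0.097 to 0.140. These 5 rose in Tconvs, with log2 fold changes of 0.76 to 0.99, which their likeness to Nlrc5 in these same libraries entails.

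The further class I genes were taken as a list of the Qa, Tla and M genes and the more distant CD1, MR1, HFE and FcRn chains. Of 24 listed genes 21 were in the table and 16 were tested. In Tregs 5 rose and none fell, and in Tconvs 6 rose and none fell. The median log2 fold changes were 0.44 and 0.29. H2-Q6 went from 13640 and 15736 to 21357 and 19781 in Tregs, and from 5208 and 3991 to 11577 and 13911 in Tconvs. It rose by 0.49 (limma, adjusted p = 0.046) and by 1.48 (adjusted p = 2.4e-06) on the log2 scale. H2-Q5 rose by 0.47 in Tregs (limma, adjusted p = 0.025) and 1.05 in Tconvs (adjusted p = 1.9e-05), and H2-Q10, a secreted class I chain, by 0.91 in Tregs (adjusted p = 0.018), with 0.64 in Tconvs (adjusted p = 0.088). This H2-Q10 value in Tconvs was 0.38 without the second CD70Tg library and 0.91 without the first. H2-Q6 and H2-Q5 share 32.0% and 36.4% of their 50-base stretches with other genes, so their values are uncertain.

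Peptide loading beyond tapasin was described with 17 listed genes, 16 of them tested, covering the lectin chaperones, the SEC61 channel and cytosolic peptidases. Tapbpl, which encodes the tapasin-related peptide editor TAPBPR, was the 1 gene of the list that rose in either subset. It went from 2645 and 2916 to 4201 and 4203 in Tregs (log2 fold change 0.60, adjusted p = 0.025, limma) and from 1971 and 1689 to 2864 and 4249 in Tconvs (log2 fold change 0.93, adjusted p = 6.4e-04). The chaperones Calr and Pdia3 had values of 0.33 (adjusted p = 0.088) and 0.17 (adjusted p = 0.45) in Tregs. The medians of the list, 0.04 and 0.13, were close to those of all tested genes.

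The immunoproteasome makes peptides suited to class I. In Tregs, 4 of its 5 listed genes rose, and in Tconvs 3 of 5, none falling. Psmb9 rose by 0.78 in Tregs (limma, adjusted p = 5.1e-04) and 0.51 in Tconvs (adjusted p = 0.0087), Psmb10 by 0.55 and 0.50, and Psmb8 by 0.42 and 0.40, whereas Psme2 rose in Tregs (0.52) and had 0.33 in Tconvs (adjusted p = 0.097). Psmb5, Psmb6 and Psmb7 are the catalytic subunits of the constitutive proteasome, and Psme3 and Psme4 are other proteasome activators. Of these 5 genes, limma passed 0 in each subset, with 0 also at an unadjusted p under 0.05 and 0 by limma-voom. Their medians were 0.01 in Tregs and -0.09 in Tconvs.

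Among 22 genes of interferon signalling and class I transactivation, 5 rose in Tregs, and 8 rose and 1 fell in Tconvs. Ifngr1, the ligand-binding chain of the interferon gamma receptor, rose by 1.12 in Tregs (limma, adjusted p = 4.3e-05) and 1.04 in Tconvs (adjusted p = 2.1e-05). Its partner chain Ifngr2 fell in Tconvs by 0.59 on the log2 scale (adjusted p = 0.016) and had -0.23 in Tregs (adjusted p = 0.39). Irf1, a transcription factor of the interferon response, rose by 0.83 in Tregs (limma, adjusted p = 0.0026) and 0.96 in Tconvs (adjusted p = 3.8e-04), and Nfkb1, the p50 subunit of NF-kappaB, by 0.43 (adjusted p = 0.037) and 1.03 (adjusted p = 2.1e-05). The RFX, NF-Y and CREB genes, whose products bind class I promoters along with NLRC5, did not pass in either subset. Medians of the list were 0.15 and 0.07.

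Counts of these lists depended on single libraries. With any 1 of the 4 Treg libraries left out, 0 of the further class I genes and 0 of the loading genes passed in Tregs, and 1 or 2 immunoproteasome genes and 3 genes of interferon signalling. Limma-voom on the recovered reads passed 1 further class I gene in Tregs. In Tconvs, without the second control or without the second CD70Tg library, 0 immunoproteasome genes and 5 genes of interferon signalling passed.

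**Figure D4:**
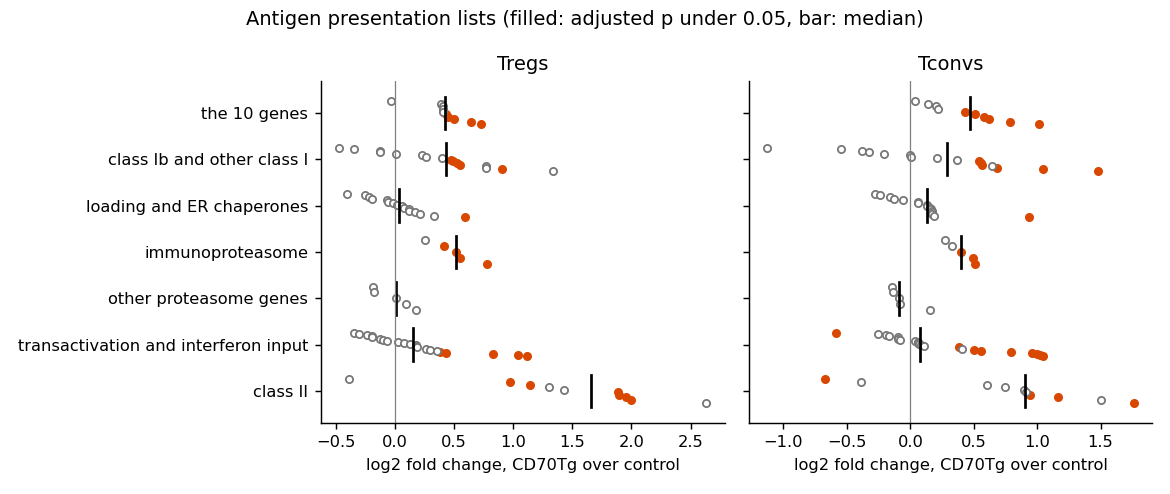
log2 fold change of CD70Tg over control in Tregs and Tconvs for the tested genes of each list, filled where the adjusted p was under 0.05, with a bar at the median. The medians of the 10 genes (0.42 and 0.47) and of the immunoproteasome (0.52 and 0.40) lie to the right of those of the other proteasome genes (0.01 and -0.09).

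Class II genes were read alongside, since mouse T cells normally express little of them. Of 10 listed genes, 6 rose in Tregs, and 3 rose and 1 fell in Tconvs. Cd74, the invariant chain, rose by 1.96 in Tregs (limma, adjusted p = 2.7e-04) and 1.76 in Tconvs (adjusted p = 3.5e-04), H2-Eb1 by 1.99 in Tregs (adjusted p = 7.9e-04) and H2-Aa by 1.90 (adjusted p = 0.0064). In Tconvs the class II genes that passed were 7 without the first CD70Tg library and 2 without the second. Ciita, the class II counterpart of Nlrc5, was at 34 and 75 in control and 241 and 87 in CD70Tg Tregs and did not pass (log2 fold change 1.43, adjusted p = 0.077). It was 0.72 without the first CD70Tg Treg library and 2.14 without the second, where it passed (adjusted p = 0.018), the 1 of 19 alternative fits in which it did. The sorted cells could carry RNA of antigen-presenting cells, which hold much class I and class II RNA. Of 9 dendritic cell and macrophage markers, 6 were tested. In Tregs, Zbtb46, a transcription factor of conventional dendritic cells, went from 25 and 27 in controls to 209 and 191 in CD70Tg mice (log2 fold change 2.72, limma, adjusted p = 0.0017). Itgam rose there by 1.13 (adjusted p = 0.013) and Csf1r fell by 0.67 (adjusted p = 0.029). Csf1r and Lyz2 made up most of the summed level of the list, which went from 2639 to 2703 in controls to 2778 to 3076 in CD70Tg mice. In Tconvs Itgax rose and Itgam fell, with sums of 1522 to 1591 in controls and 1064 to 1484 in CD70Tg mice. The 6 B cell markers summed to 264 to 397 in control and 454 to 494 in CD70Tg Tregs, and the 4 erythroid markers to 463 to 1258 and 1992 to 3188, with 3 of 3 tested rising there. In Tconvs the B cell sum was 158 to 182 in control and 64 to 97 in CD70Tg mice, and the erythroid sum 703 to 1281 and 776 to 814. Of the CD8 T cell markers, Cd8a and Cd8b1 rose in Tconvs and Cd8a in Tregs. They summed to 681 to 720 in control and 1563 to 1590 in CD70Tg Tconvs, and to 317 to 417 and 631 to 660 in Tregs. The granulocyte markers were at 0 in all controls and summed to at most 22 in CD70Tg libraries, and the NK cell marker Klrb1c fell in both subsets. The part of these cells in the class I values was not tested, and in such sorted bulk samples more cells of a type and more RNA per cell cannot be told apart.

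The position of the genes was also examined. Between the outer ends of Tapbp and H2-T22, over 2.13 Mb of chromosome 17, 119 genes were tested. Of the 7 members there, 5 rose in each subset. Of 19 genes of the lists above, 11 rose in Tregs, and 8 rose and 1 fell in Tconvs. The other 93 genes of the interval had medians of -0.02 and 0.02, with 8 rising and 3 falling in Tregs and 7 rising and 1 falling in Tconvs. Gm15821, which overlaps Tap2 and was picked after its values were seen, rose by 0.66 in Tregs (limma, adjusted p = 0.012) and 0.62 in Tconvs (adjusted p = 0.014).

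**Figure D5:**
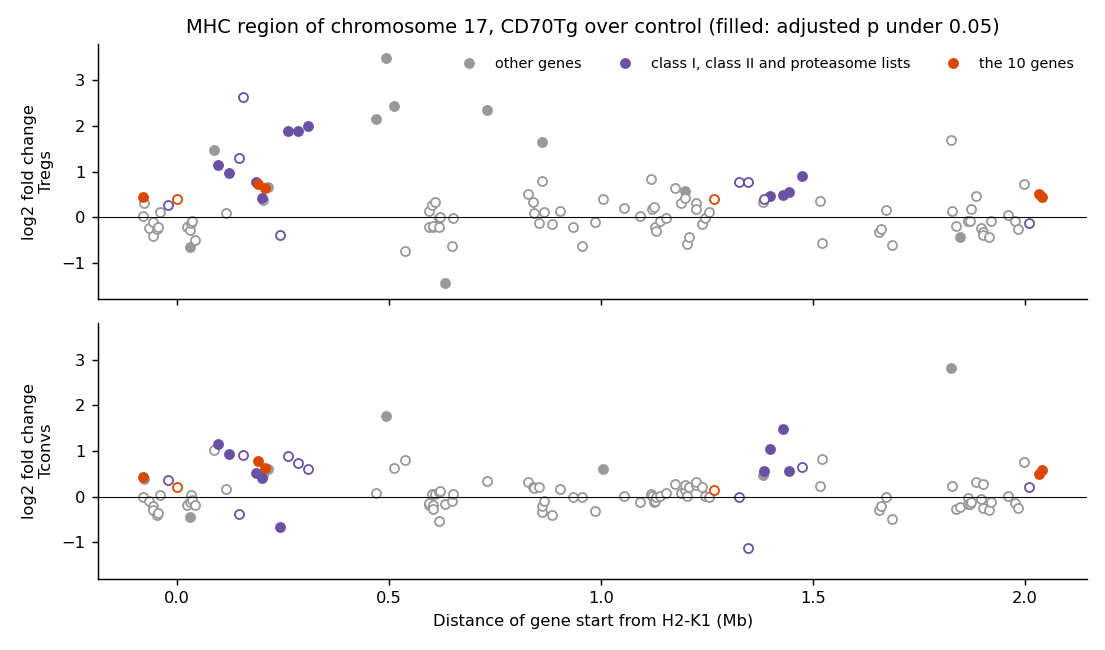
log2 fold change of CD70Tg over control in Tregs (top) and Tconvs (bottom) for the 119 tested genes between Tapbp and H2-T22, against the distance of the gene start from H2-K1 in Mb, filled where the adjusted p was under 0.05. Members and list genes lie mostly above 0 and the 93 other genes around it, with medians of -0.02 and 0.02.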

How the data were processed

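The deposited values (classed here as a score) were made by the authors, who removed adapters with Trimmomatic 0.36, mapped to mm10 with STAR 2.5.3, counted with HTSeq 0.9.1, scaled each library to 20 M and rounded up. The annotation and strand setting are not given in the sources used here. The control columns carry the name KO, while the labels call these mice WT and the methods CD27+/-. Scaling sets abundant genes against all others within a library, and gene levels move with transcript length.

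Genes with at least 60 in 2 or more libraries were tested, without 4131 clone-named rows, leaving 12816. A single limma 3.58.1 model (R 4.3.3, with a mean-variance trend) of log2(value + 5) over 4 groups gave each comparison, with Benjamini-Hochberg adjustment over all genes. The pseudocount understates changes of low genes. The model was checked on simulated data with the same dispersion in every gene and library. These lacked the low values of abundant genes in the deeper Tconv libraries. Lengths and positions came from GENCODE M21. The value worth 3 reads in a library was 1.8 to 31.4, and covers counting error only. Named genes were all 10 members, the 3 largest passing changes of each list with Irf1, Psmb8, Psmb9 and Ciita, label and cell type markers, and the 6 nearest profiles. Some genes of this rule are not reported here. The members and lists were chosen with earlier results of these data known. Alternatives were pseudocounts, minimum values, scalings, limma-voom, a fold threshold, a subset of libraries, clone-named rows and leaving out each library.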

Additional observations from a re-analysis of the deposited data

Results flagged for a closer look

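H2-Q6, a Qa-2 class I chain, responded differently in the subsets by the test of the difference itself. Its log2 fold change in Tregs minus that in Tconvs was -0.99 (SE 0.20, 95% CI -1.41 to -0.56, adjusted p = 0.022, limma), since it rose by 0.49 in Tregs and by 1.48 in Tconvs. Control Tconvs held 5208 and 3991 and control Tregs 13640 and 15736. The direction was kept in 18 of 18 alternatives, of which 9 passed, with adjusted p between 0.0036 and 0.36. Of its neighbours, H2-Q5 had a difference of -0.57 (adjusted p = 0.15, limma), H2-Q4 -0.17 (adjusted p = 0.80) and H2-Q7 -0.0052 (adjusted p = 0.996). H2-Q10 (0.27), H2-Q1 (0.77) and H2-Q2 (1.90, adjusted p = 0.098) went the other way, and none of these neighbours passed. H2-Q6, H2-Q5 and H2-Q10 share sequence with H2-Q7 and with other class I genes.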

How the results depend on the processing

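No paired analysis was possible because the columns of the table carry no replicate numbers. In Tregs, where 5 members rose, 1 passed with no minimum value, 9 with the Treg libraries alone, 0 with a log2 fold change over 1 required, and 1 to 7 when 1 library was left out. In Tconvs, where 6 rose, 1 passed with the fold threshold, 5 with TMM factors, median-of-ratios factors, the Tconv libraries alone or the length trend removed, 4 with no minimum value, and 3 to 6 when 1 library was left out. For the difference between responses, 0 to 1 passed when 1 library was left out. For Tregs against Tconvs in controls, where 1 passed, there were 3 with these libraries alone, 3 with limma-voom on recovered reads, 5 with cyclic loess between the libraries, 2 with the transcript length trend removed, and 1 to 4 when 1 library was left out. For CD70Tg mice, where 5 passed, there was 1 with no minimum value, 3 with TMM factors, 3 with median-of-ratios factors, 3 with these libraries alone, 0 with the fold threshold, 3 with the length trend removed, and 1 to 5 when 1 library was left out. The share of all tested genes that passed is not given for these alternative fits. The loess and length settings were chosen after seeing the data. Without a minimum value more genes are tested, and with a library left out an arm of 1 is assumed to vary like the others. For the other changes the cause was not tested.

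Some values that had not passed changed sign. B2m in Tconvs was -0.0104 with TMM factors, -0.0009 with median-of-ratios factors, and -0.37 to 0.45 when 1 library was left out. Erap1 in Tregs was 0.0149 with TMM factors, 0.0113 with median-of-ratios factors, 0.0558 with the length trend removed, and -0.14 to 0.0754 when 1 library was left out. With 1 library left out, the ranges in Tconvs were -0.0475 to 0.49 for H2-K1, -0.0549 to 0.34 for H2-D1 and -0.0174 to 1.23 for H2-Eb1 (0.61 with all libraries, lowest without the second CD70Tg library), and Erap1 in control Tregs against Tconvs had -0.1786 to 0.0326. The scalings moved the median of all tested genes by under 0.1 on the log2 scale. The Treg libraries were the shallowest, down to 1.92 M reads, and the effect of depth on the calls was not tested.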
